A study of Mus musculus with 12 samples.

Results

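The 10 genes described here belong to canonical Wnt signalling: the ligand Wnt3, the ligand carrier Wls, the receptor Lgr4, the DNA-binding factor Tcf7, the feedback inhibitors Nkd1 and Axin2, and the target genes Sp5, T, Cdx1 and Ccnd1. They were taken by gene symbol from the count table, and all 10 were among its 32285 genes and among the 12765 that passed the filter on low counts. Bulk RNA sequencing gave their transcript levels in IB10 mouse embryonic stem cells, a line from 129/Ola mice, in 4 genotypes with 3 libraries each: wild type, DHX36 knockout, FANCJ knockout and DHX36/FANCJ double knockout. All cells were untreated and grew on gelatin without a feeder layer being named, in medium conditioned by Buffalo rat liver cells with serum and leukaemia inhibitory factor. DHX36 and FANCJ (encoded by Brip1) are helicases that unwind G-quadruplexes, folded structures of guanine-rich DNA or RNA. The labels do not state whether the 3 libraries of a genotype are from separate cultures, nor whether a knockout was 1 clone. The p-values therefore measure the spread between these libraries alone, and that spread may be technical.

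Wnt proteins receive a lipid from the acyltransferase Porcn and are carried to the cell surface by Wls. They bind Frizzled and LRP receptors on responding cells, which stabilises beta-catenin, and beta-catenin then acts at target genes with DNA-binding factors of the TCF/LEF family. In embryonic stem cells the pathway supports self-renewal, largely by lifting repression by Tcf7l1, and it also turns on genes of the primitive streak such as T. Several targets, Axin2 and Nkd1 among them, act back on the pathway as inhibitors.

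Promoter sequence from RefSeq was at hand for 8 of the 10 genes, in 9 windows running from 250 bases before the start site to 50 after it (build GRCm38.p6). A TCF/LEF core, CTTTGAT or CTTTGAA on either strand, was present in 2 of these windows, those of Sp5 and T, and in 8.65% of all 32851 windows of the same length. A G-quadruplex motif, 4 runs of GGG with loops of 1 to 7 bases on either strand, was present in 5 of the 9, belonging to Wnt3, Wls, Axin2, T and 1 of the Tcf7 windows, and in 18.52% of all windows. The upstream stretches of 3 genes are shown because they carry the binding motif of the pathway's own factors (Sp5 and T) or the motif of the structure that both helicases unwind (Wls). Each is the plus strand, the strand of the gene, read 5′ to 3′. Capitals mark the TCF/LEF core in Sp5 and T and the G-quadruplex motif in Wls, and the G-quadruplex match in the T window is not marked. Sp5 is chr2:70474673-70474922 with CTTTGAT ending 97 bases before the start site, T is chr17:8434173-8434422 with CTTTGAA on the minus strand 228 bases before it, and Wls is chr3:159839400-159839649 with the G-quadruplex motif ending 9 bases before it. A match describes these letters and does not show that a protein binds or a structure forms there.
Sp5: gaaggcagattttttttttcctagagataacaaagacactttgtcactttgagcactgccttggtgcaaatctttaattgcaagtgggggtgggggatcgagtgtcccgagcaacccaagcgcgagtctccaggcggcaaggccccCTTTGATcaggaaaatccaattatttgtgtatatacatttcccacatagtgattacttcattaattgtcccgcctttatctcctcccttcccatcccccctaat
T: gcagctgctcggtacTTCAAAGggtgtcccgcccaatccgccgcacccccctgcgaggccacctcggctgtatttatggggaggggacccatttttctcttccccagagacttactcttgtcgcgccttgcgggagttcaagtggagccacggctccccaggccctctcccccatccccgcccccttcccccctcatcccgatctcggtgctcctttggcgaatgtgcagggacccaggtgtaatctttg
Wls: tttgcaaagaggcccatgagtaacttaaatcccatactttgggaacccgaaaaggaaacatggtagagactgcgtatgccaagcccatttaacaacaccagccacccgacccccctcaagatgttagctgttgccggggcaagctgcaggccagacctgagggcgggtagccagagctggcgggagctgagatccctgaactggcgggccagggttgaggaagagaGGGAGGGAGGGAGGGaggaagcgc

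Libraries held 4284785 to 14721931 counts and 15392 to 18441 detected genes, and the double knockout libraries were all deeper than the wild-type ones. The targeted genes followed the labels: Dhx36 was at 50.1 to 57.6 CPM (a gene's count scaled to a common normalised library size) in wild type and 51.5 to 58.0 CPM in the FANCJ knockout, against 8.84 to 11.6 CPM in the DHX36 knockout and 12.2 to 15.1 CPM in the double knockout. Brip1 was at 6.72 to 7.03 CPM in wild type and 6.45 to 7.42 CPM in the DHX36 knockout, against 0.129 to 0.619 CPM in the FANCJ knockout and 0.178 to 0.744 CPM in the double knockout. The labels name the cells as embryonic stem cells, and 16 naive pluripotency genes had a summed level of 4707 to 7174 CPM over the libraries. Of these genes Dppa5a alone had genotype means from 1228 to 1862 CPM. No other cell type was measured for comparison. In bulk RNA, fewer cells expressing a gene and less RNA per cell cannot be told apart.

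With both helicases absent, 9 of the 10 genes fell against wild type, where 17.3% of all tested genes fell and 16.6% rose, and Lgr4 alone did not pass the test. The 10 genes were chosen with earlier results of these data known, so their counts beside these shares are description and not a test. Sp5 fell most on the log2 scale, then Wnt3 and Wls. Each single knockout moved few of them. In the DHX36 knockout T and Lgr4 rose and Wls fell, where 12.8% of all tested genes rose and 11.6% fell. In the FANCJ knockout T and Sp5 fell, where 0.619% of all tested genes fell and 1.45% rose. T, which encodes brachyury, the transcription factor of the primitive streak, went in opposite directions in the single knockouts.

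**Figure D1:**
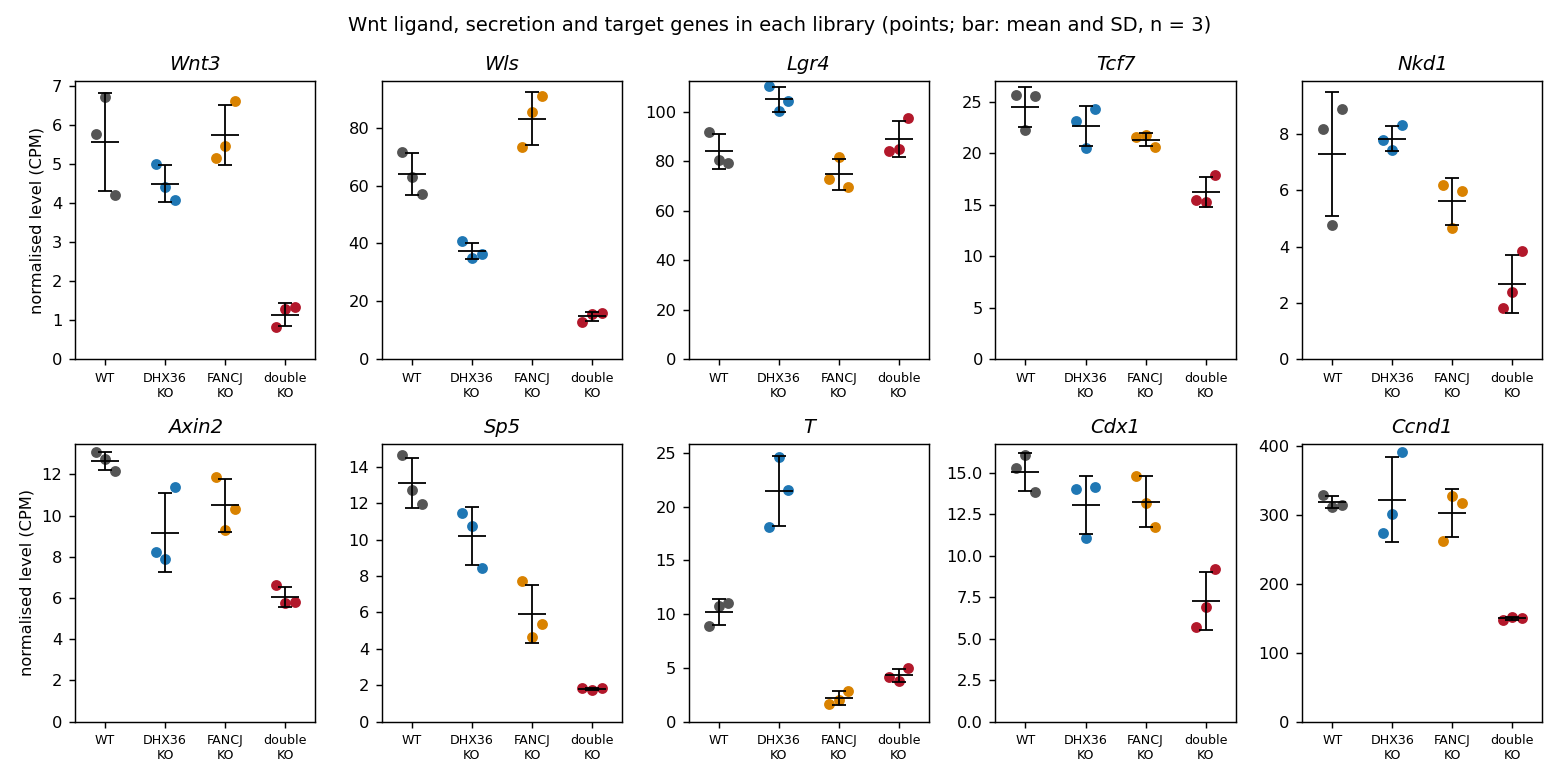
Normalised level (CPM, vertical axis from 0) of each of the 10 genes in every library, with a point per library and bars for the mean and SD of 3 libraries per genotype. In 9 panels the double knockout libraries all sit below the wild-type libraries, and in the Lgr4 panel they overlap; the T panel has its highest points in the DHX36 knockout and its lowest in the FANCJ knockout.

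Wnt3, the canonical Wnt ligand needed to form the primitive streak in the mouse embryo, lies at chr11:103774150-103817957 on the plus strand (ENSMUSG00000000125; coordinates here and below are GRCm38, GENCODE M21). It was at 5.76, 6.72 and 4.22 CPM in wild type, 5.00, 4.42 and 4.07 CPM in the DHX36 knockout and 5.16, 5.45 and 6.60 CPM in the FANCJ knockout. The double knockout libraries were at 0.812, 1.28 and 1.34 CPM, from 12, 16 and 15 counts. The wild-type libraries overlapped with those of each single knockout, and the 3 double knockout libraries lay far below all others. Against wild type the double knockout level was 4.96-fold lower (log2 change -2.31, SE 0.29, n = 3 each, adjusted p = 2.2e-06 by edgeR's quasi-likelihood test with Benjamini-Hochberg adjustment, as for all adjusted p-values below). Neither single knockout passed the test: the log2 change was -0.33 (SE 0.25, 95% interval -0.91 to 0.26) in the DHX36 knockout and 0.01 (SE 0.25, 95% interval -0.58 to 0.59) in the FANCJ knockout.

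Wls (chr3:159839672-159938664, plus strand, ENSMUSG00000028173) encodes the membrane protein that takes lipid-modified Wnts from the secretory pathway to the cell surface. Its level was 71.7, 63.1 and 57.1 CPM in wild type, 40.7, 35.0 and 36.4 CPM in the DHX36 knockout, 73.3, 85.4 and 91.0 CPM in the FANCJ knockout and 12.9, 15.6 and 15.8 CPM in the double knockout. The 4 genotypes did not overlap, in the order double knockout, DHX36 knockout, wild type, FANCJ knockout. The DHX36 knockout was 1.71-fold lower than wild type (log2 change -0.77, SE 0.12, adjusted p = 3.9e-05, n = 3 each) and the double knockout 4.35-fold lower (log2 change -2.12, SE 0.12, adjusted p = 2.6e-11). The uppermost step in that order did not pass: the FANCJ knockout differed from wild type by 0.37 (SE 0.11, 95% interval 0.11 to 0.63, adjusted p = 0.0945), and an analysis without the filter on low counts placed it past the threshold (adjusted p = 0.0417).

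A list of 10 fibroblast and feeder cell genes is set beside Wnt3 and Wls. Its summed level, most of it from Acta2 and Tagln (363 and 308 CPM in wild type), was 745 to 907 CPM in wild type, 458 to 473 CPM in the DHX36 knockout, 1057 to 1095 CPM in the FANCJ knockout and 178 to 193 CPM in the double knockout. In the double knockout 6 of its 7 tested genes fell, among them Col1a1 (log2 change -2.59, SE 0.11), Acta2 (-2.98, SE 0.10) and Tagln (-2.32, SE 0.10), and Thy1 rose (1.61, SE 0.24). Over all tested genes 17.3% fell and 16.6% rose there. In the DHX36 knockout, where Wls fell, 3 of the 7 fell (Col1a1, Acta2 and Tagln) and 2 rose (Thy1 and Vim), with a median of 0.33. In the FANCJ knockout 2 rose (Acta2 and Tagln) and 0 fell by edgeR (0 at an unadjusted p under 0.05 and 0 by DESeq2), with a median of -0.09. Over all tested genes 11.6% fell and 12.8% rose without DHX36, and 0.619% fell and 1.45% rose without FANCJ. The Tagln rise without FANCJ (0.38, SE 0.10) was lost without any of wild-type libraries 1 and 2 and FANCJ knockout libraries 1, 2 and 3 (adjusted p from 0.0757 to 0.184). Its call was also lost with plain library totals (adjusted p = 0.0700), with the replicate number as a block (0.0547), at equal depth (0.0544) and with only the compared genotypes fitted (0.0750). The double knockout median was -1.80. Levels differed between the genes of the list. Col1a1 was at 70.7 CPM in wild type, 42.9 CPM in the DHX36 knockout, 66.4 CPM in the FANCJ knockout and 11.7 CPM in the double knockout. Col1a2 and Col3a1 were at 8.49 and 6.50 CPM in wild type. Postn, Lum and Dcn were near 0 in every genotype, with means between 0.0491 and 0.219 CPM and with no group at 0 in all of its libraries for any gene of the list. Acta2 and Tagln are smooth muscle and actin cytoskeleton genes that fibroblasts and other cells express. The part of the genes on this list in the Wnt3 and Wls results was not tested.

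Lgr4 (chr2:109917647-110014257, plus strand, ENSMUSG00000050199) encodes a receptor for R-spondins, secreted proteins that strengthen the Wnt response by keeping Frizzled receptors at the surface. It was measured at 91.9, 80.6 and 79.2 CPM in wild type, 110.3, 100.4 and 104 CPM in the DHX36 knockout, 72.7, 81.5 and 69.7 CPM in the FANCJ knockout and 84.3, 85.1 and 97.2 CPM in the double knockout. All DHX36 knockout libraries lay above all others, and the other genotypes overlapped with wild type. The DHX36 knockout rise against wild type was small (log2 change 0.33, SE 0.09, adjusted p = 0.0149, n = 3 each), and the call was lost without wild-type library 2 (0.29, adjusted p = 0.0682), wild-type library 3 (0.28, adjusted p = 0.0663) or DHX36 knockout library 1 (0.28, adjusted p = 0.0662). The double knockout change of 0.08 (SE 0.09, 95% interval -0.13 to 0.30) did not pass. The FANCJ knockout change of -0.16 (SE 0.10, 95% interval -0.39 to 0.06) did not pass either.

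Tcf7 (chr11:52252371-52283014, minus strand, ENSMUSG00000000782) encodes TCF1, a member of the TCF/LEF family that activates targets with beta-catenin. Its levels were 25.7, 22.3 and 25.5 CPM in wild type, 23.1, 20.5 and 24.3 CPM in the DHX36 knockout, 21.5, 21.8 and 20.6 CPM in the FANCJ knockout and 15.5, 15.2 and 17.9 CPM in the double knockout. The double knockout libraries were the lowest 3 of the 12. The fall against wild type was the smallest of the 9 (log2 change -0.59, SE 0.12, adjusted p = 0.000781). A long noncoding gene on the same strand, Gm26551, covers the 3′ end of Tcf7 in the annotation and has no row in the table as used here, so counts from it could be included.

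Nkd1 (chr8:88521354-88594884, plus strand, ENSMUSG00000031661), which encodes a Dishevelled-binding inhibitor of the pathway, was at 8.19, 4.77 and 8.90 CPM in wild type and 7.78, 7.42 and 8.32 CPM in the DHX36 knockout. It was at 6.19, 4.65 and 5.98 CPM in the FANCJ knockout and 1.83, 2.39 and 3.83 CPM in the double knockout. Wild-type library 2 overlapped with the FANCJ knockout, and the double knockout lay below every other library. Against wild type the double knockout change was -1.44 (log2, SE 0.28, adjusted p = 0.000356, n = 3 each).

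Axin2 (chr11:108920349-108950783, plus strand, ENSMUSG00000000142) encodes a scaffold of the complex that marks beta-catenin for destruction, and its transcript is a widely used readout of Wnt activity. The wild-type libraries stood at 13.1, 12.7 and 12.2 CPM, the DHX36 knockout libraries at 8.23, 7.89 and 11.4 CPM, the FANCJ knockout libraries at 11.9, 9.31 and 10.3 CPM and the double knockout libraries at 6.63, 5.74 and 5.79 CPM. Each single knockout lay below wild type without overlap, yet neither passed the test. The fitted log2 change was -0.44 (SE 0.18, 95% interval -0.85 to -0.04, adjusted p = 0.0699) without DHX36 and -0.27 (SE 0.18, 95% interval -0.68 to 0.14, adjusted p = 0.520) without FANCJ. DHX36 knockout library 3 was the highest of its genotype, and without it the DHX36 knockout change was -0.65 (adjusted p = 0.0191). In the double knockout Axin2 fell by 1.06 on the log2 scale (SE 0.18, adjusted p = 8.0e-05).

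Sp5 (chr2:70474923-70477729, plus strand, ENSMUSG00000075304), a zinc-finger repressor gene that is a direct target of beta-catenin and whose upstream stretch above holds the TCF/LEF core, was at 14.6, 12.7 and 11.9 CPM in wild type and 11.5, 10.7 and 8.41 CPM in the DHX36 knockout. The FANCJ knockout libraries were at 7.73, 4.65 and 5.36 CPM and the double knockout libraries at 1.83, 1.75 and 1.87 CPM. The order was wild type, DHX36 knockout, FANCJ knockout, double knockout, with no overlap between neighbours. The upper neighbours did not pass the test (log2 change -0.37, SE 0.19, 95% interval -0.81 to 0.07, adjusted p = 0.165). Both lower steps did: the FANCJ knockout differed from the DHX36 knockout by -0.76 (SE 0.20, adjusted p = 0.00658), a call lost without FANCJ knockout library 2 (-0.58, adjusted p = 0.0561), and the double knockout from the FANCJ knockout by -1.71 (SE 0.24, adjusted p = 8.4e-06). Against wild type Sp5 fell by 1.13 on the log2 scale without FANCJ (SE 0.21, adjusted p = 0.00518) and was 7.16-fold lower in the double knockout (log2 change -2.84, SE 0.22, adjusted p = 3.1e-09).

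T (chr17:8434423-8442496, plus strand, ENSMUSG00000062327) was at 8.86, 10.8 and 11.0 CPM in wild type, 18.1, 24.6 and 21.5 CPM in the DHX36 knockout, 1.68, 1.99 and 2.89 CPM in the FANCJ knockout and 4.13, 3.83 and 4.99 CPM in the double knockout. No library of 1 genotype reached the range of another, and the order was FANCJ knockout, double knockout, wild type, DHX36 knockout. T rose 2.08-fold in the DHX36 knockout (log2 change 1.06, SE 0.17, adjusted p = 0.000104) and was 4.85-fold lower than wild type in the FANCJ knockout (log2 change -2.28, SE 0.25, adjusted p = 9.1e-06). The double knockout was lower than wild type by a smaller step (log2 change -1.25, SE 0.20, adjusted p = 4.0e-05) and higher than the FANCJ knockout (1.03, SE 0.25, adjusted p = 0.00281), the latter call being lost at equal depth (0.79, adjusted p = 0.101). Between the single knockouts T differed by 10.1-fold (log2 change -3.33 for FANCJ knockout against DHX36 knockout, SE 0.21, adjusted p = 2.5e-10).

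Other markers of mesendoderm and primitive streak are set beside T. Of 12 such genes, 6 were tested. In the FANCJ knockout, where T fell, none of them fell at an adjusted or unadjusted p under 0.05 by edgeR or an adjusted one by DESeq2, and Hand1 rose (log2 change 0.65, SE 0.15). By edgeR 0.619% of all tested genes fell and 1.45% rose there, so the absence of called falls among 6 genes does not set them apart. The Hand1 call was lost without wild-type library 1 (0.56, adjusted p = 0.138), wild-type library 2 (0.59, adjusted p = 0.131), FANCJ knockout library 1 (0.61, adjusted p = 0.116) or FANCJ knockout library 2 (0.52, adjusted p = 0.136). It was also lost with only the compared genotypes fitted (0.64, adjusted p = 0.0572). In the DHX36 knockout Hand1 (1.25, SE 0.15) and Eomes (0.82, SE 0.12), both transcription factors of early mesoderm and trophoblast, rose with T. These were 2 of the 6, and 0 fell by edgeR, where 12.8% of all tested genes rose and 11.6% fell. In the double knockout, where T was below wild type, Hand1 (0.54, SE 0.15) and Eomes (0.57, SE 0.12) rose. Primitive endoderm markers also moved in the FANCJ knockout, where 7 of 11 tested rose beside 1.45% of all tested genes, and their part in the T result was not tested.

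Cdx1 (chr18:61018862-61036199, minus strand, ENSMUSG00000024619) encodes a caudal-type homeobox factor of posterior patterning. Its wild-type libraries were at 15.3, 16.1 and 13.8 CPM, with 14.0, 11.1 and 14.1 CPM in the DHX36 knockout, 14.8, 13.2 and 11.8 CPM in the FANCJ knockout and 5.68, 6.94 and 9.17 CPM in the double knockout. Single knockouts overlapped with wild type and the double knockout lay below all. It fell by 1.07 on the log2 scale in the double knockout (SE 0.18, adjusted p = 8.2e-05), against changes of -0.20 (SE 0.17) without DHX36 and -0.18 (SE 0.18) without FANCJ that did not pass.

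Ccnd1 (chr7:144929931-144939925, minus strand, ENSMUSG00000070348), the gene of cyclin D1, which drives entry into S phase, had the most counts of the 10, from 1341 to 4226 per library. It was at 328, 312 and 314 CPM in wild type, 273, 301 and 391 CPM in the DHX36 knockout, 262, 328 and 317 CPM in the FANCJ knockout and 147, 152 and 149.9 CPM in the double knockout. The double knockout libraries lay close together and below all others, while both single knockouts spread around wild type. The double knockout fell by 1.09 on the log2 scale (SE 0.11, adjusted p = 1.1e-07). The single knockout changes were 0.02 (SE 0.11, 95% interval -0.23 to 0.27) without DHX36 and -0.07 (SE 0.11, 95% interval -0.32 to 0.18) without FANCJ. The 3′ end of Ccnd1 overlaps LTO1 on the opposite strand by 1771 bases, and LTO1 itself had 78 to 219 counts per library.

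Counted over the 10 genes, the double knockout had 9 lower and 0 higher than wild type by edgeR (0 higher at an unadjusted p under 0.05 and 0 by DESeq2). The DHX36 knockout had 2 higher and 1 lower. Without FANCJ 0 were higher by edgeR (1 at an unadjusted p under 0.05, 0 by DESeq2) and 2 were lower. The median log2 change of the 10 was -1.17 in the double knockout, -0.15 without DHX36 and -0.18 without FANCJ, beside medians of 0.01, 0.00 and -0.00 over all tested genes. Without overlap between libraries, 9 genes lay below wild type and 0 above in the double knockout (22.1% and 23.1% of all genes did), 3 below and 2 above in the DHX36 knockout (18.1% and 19.6%), and 4 below and 1 above in the FANCJ knockout (8.70% and 10.0%). The 3 comparisons share the wild-type libraries, so their values are not independent. The choice of the 10 genes was made with earlier results of these data known, so the counts and medians describe them and test nothing.

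**Figure D2:**
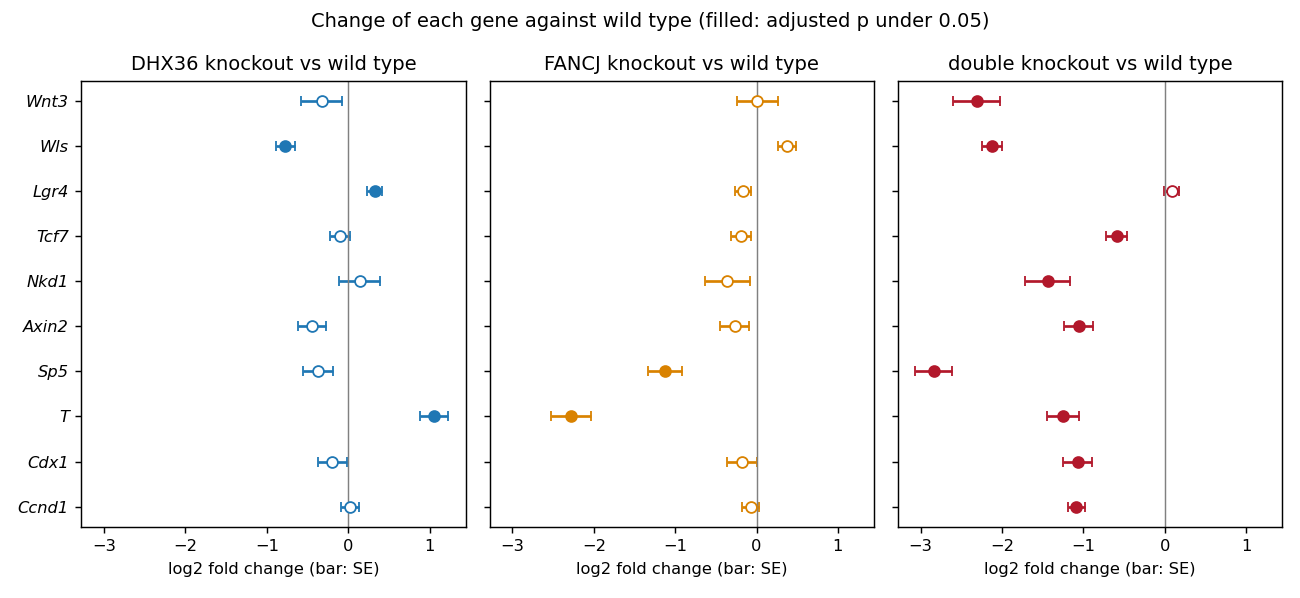
Log2 fold change against wild type (horizontal axis) of each gene in the DHX36 knockout, FANCJ knockout and double knockout, with bars for the SE of the fit to 3 libraries per genotype and filled points where the adjusted p is under 0.05. In the right panel 9 of 10 points are filled and left of 0, while the left panel has 3 filled points and the middle panel 2.

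The double knockout was also set against each single knockout. Against the DHX36 knockout 9 of the 10 were lower and 0 higher by edgeR (0 at an unadjusted p under 0.05 and 0 by DESeq2), where 11.4% of all tested genes were lower and 8.28% higher. The exception was Lgr4 at -0.24 (SE 0.09, adjusted p = 0.0636), which passed without double knockout library 3 (-0.30, adjusted p = 0.0395). The Tcf7 fall of 0.49 (adjusted p = 0.00421) was lost at equal depth (-0.37, adjusted p = 0.143). Axin2 had a fall of 0.61 here that did not pass without DHX36 knockout library 3 (-0.41, adjusted p = 0.146), without double knockout library 2 (-0.57, adjusted p = 0.0533) or at equal depth (-0.61, adjusted p = 0.0739). Against the FANCJ knockout 8 were lower and 2 higher (T and Lgr4), where 18.5% of all tested genes were lower and 18.3% higher. The Lgr4 difference of 0.25 (adjusted p = 0.0411) was lost without FANCJ knockout library 1 (0.22, adjusted p = 0.142) or library 3 (0.20, adjusted p = 0.145), without double knockout library 2 (0.28, adjusted p = 0.0501) or library 3 (0.17, adjusted p = 0.194), and with DESeq2 (0.24, adjusted p = 0.0527). The Tcf7 difference of -0.40 (adjusted p = 0.0122) was lost without double knockout library 2 (-0.36, adjusted p = 0.0538) and at equal depth (-0.35, adjusted p = 0.120). Between the single knockouts, Wls was higher without FANCJ than without DHX36 (1.15, SE 0.11, adjusted p = 1.0e-07), and T, Sp5 and Lgr4 (-0.49, SE 0.09, adjusted p = 0.000383) were lower, where 14.8% of all tested genes were higher and 15.4% lower.

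The interaction asks whether losing FANCJ had another effect in cells without DHX36 (double knockout against DHX36 knockout) than in cells with it (FANCJ knockout against wild type). It passed for 5 of the 10 genes, all with a more negative change without DHX36 than with it. Over all tested genes 6.06% had a called negative difference and 2.73% a positive one. Loss of FANCJ changed Wnt3 by 0.01 with DHX36 and by -1.99 without it (difference -1.99, SE 0.38, adjusted p = 0.00139). For Wls the change was 0.37 with DHX36 and -1.35 without it (difference -1.72, SE 0.17, adjusted p = 6.2e-07). In both genes of ligand supply the libraries without FANCJ alone reached the wild-type range or lay above it, and the double knockout libraries all lay below the DHX36 knockout.

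Ccnd1 moved by -0.07 with DHX36 and by -1.10 without it (difference -1.03, SE 0.15, adjusted p = 0.000128). Sp5 had a fall in both settings, by 1.13 with DHX36 and by 2.47 without it (difference -1.34, SE 0.31, adjusted p = 0.00672). Nkd1 changed by -0.36 and -1.58 (difference -1.22, SE 0.37, adjusted p = 0.0427). The Nkd1 call was lost with DESeq2 (-1.21, adjusted p = 0.0601), at equal depth (-1.23, adjusted p = 0.0639), with plain library totals (-1.20, adjusted p = 0.0508) and in 8 of 12 fits that left out 1 library, in which the difference ran from -1.25 to -0.97. These 8 left out wild-type library 2, any of the DHX36 knockout libraries, FANCJ knockout library 1 or 3, or double knockout library 1 or 2. They gave adjusted p-values from 0.0577 to 0.121.

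The effect of FANCJ loss on T was -2.28 with DHX36 and -2.31 without it, and the difference was -0.03 with a 95% interval of -0.88 to 0.81 (adjusted p = 0.994), which does not show that they are equal. Cdx1 (difference -0.70, SE 0.25, adjusted p = 0.0846) did not pass, and did so without double knockout library 3 (-0.89, adjusted p = 0.0238). Axin2 (-0.35, SE 0.25, adjusted p = 0.444), Tcf7 (-0.30, SE 0.17, adjusted p = 0.319) and Lgr4 (-0.08, SE 0.13, adjusted p = 0.788) did not pass either.

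**Figure D3:**
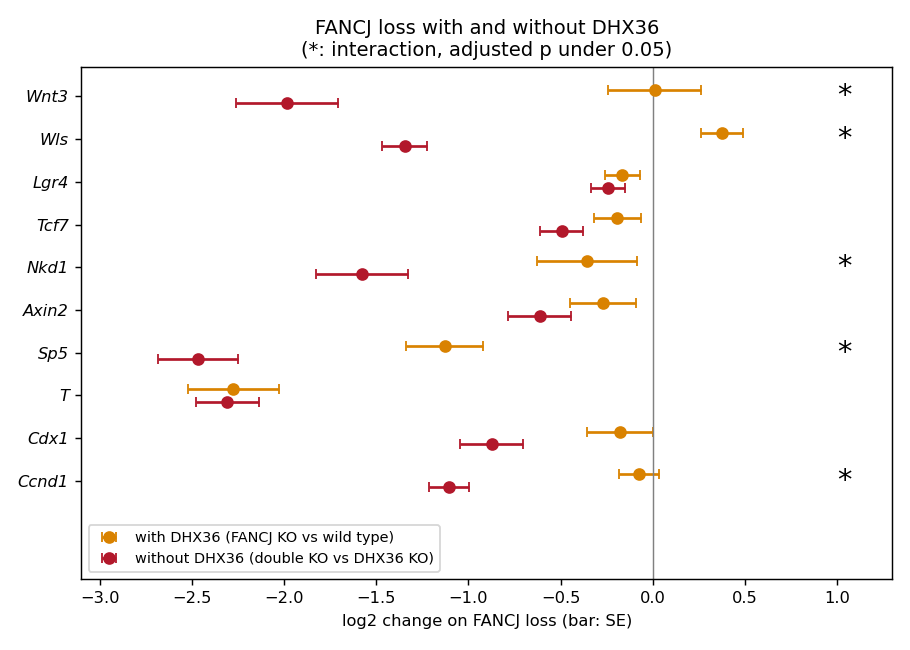
Log2 change on loss of FANCJ (horizontal axis) with DHX36 present (FANCJ knockout against wild type) and absent (double knockout against DHX36 knockout), with bars for the SE of the fit and a star where the interaction has an adjusted p under 0.05. The paired points of Wnt3, Wls, Ccnd1, Sp5 and Nkd1 stand apart, and those of T lie on each other near -2.3.

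The remaining genes of the pathway were followed through lists grouped by role. Of 18 other Wnt ligands, 9 were tested. In the double knockout 5 of the 9 fell and 0 rose by edgeR (0 rose at an unadjusted p under 0.05, and DESeq2 gave 6 falls and 0 rises), with a median of -0.97. Over all tested genes 17.3% fell and 16.6% rose. Wnt4 went from 26.0 CPM in wild type (SD 2.11, n = 3) to 7.31 CPM (SD 0.357) in the double knockout (log2 change -1.82, SE 0.14, adjusted p = 1.9e-09). Wnt7a (-2.01, SE 0.29), Wnt6 (-1.44, SE 0.23) and Wnt7b (-0.88, SE 0.16) also fell, as did the weakly measured Wnt5a (-2.31, SE 0.46), named after its value was seen. In the DHX36 knockout Wnt4 (-0.62, SE 0.13), Wnt6 (-1.74, SE 0.25) and Wnt7b (-1.49, SE 0.17) fell and Wnt5b, likewise weakly measured and named after its value was seen, rose (2.45, SE 0.48). In the FANCJ knockout 0 of 9 passed by edgeR or DESeq2, and 4 had an unadjusted p under 0.05. By edgeR 1.45% of all tested genes rose and 0.619% fell there. Wnt4 and Wnt7a shared the course of Wnt3 in the interaction, with differences of -1.50 (SE 0.19, adjusted p = 1.6e-05) and -2.03 (SE 0.38, adjusted p = 0.0014). Wnt3a, the ligand closest to Wnt3, was at 1.63 CPM in wild type and 2.04 CPM in the double knockout and did not pass (0.29).

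Genes that modify, carry or remove the lipid on Wnts were called at about the share of all tested genes (16.6% up, 17.3% down): of 11 tested beside Wls, 2 rose and 2 fell in the double knockout, with a median of -0.06. Porcn was 31.5 CPM in wild type, 44.2 CPM in the DHX36 knockout, 19.8 CPM in the FANCJ knockout and 39.4 CPM in the double knockout. It rose in the DHX36 knockout (0.49, SE 0.12, adjusted p = 0.0041) and fell in the FANCJ knockout (-0.66, SE 0.13, adjusted p = 0.0088), where the call was lost without wild-type library 1 (-0.56, adjusted p = 0.0609) or FANCJ knockout library 1 (-0.59, adjusted p = 0.0638). Its rise in the double knockout (0.33, SE 0.12, adjusted p = 0.0354) was lost without wild-type library 2 or 3 or any of the double knockout libraries (adjusted p from 0.0544 to 0.215). The call was also lost at equal depth (0.30, adjusted p = 0.0837). Notum, a secreted enzyme that removes the lipid, rose in the double knockout (0.81, SE 0.20, adjusted p = 0.003), and Trabd2b, a membrane protein that cleaves Wnts and is named after its value was seen, fell (-2.14, SE 0.51).

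Among 17 tested receptors and R-spondin pathway genes other than Lgr4, 1 rose and 2 fell in the double knockout, with a median of -0.26. Over all tested genes 16.6% rose and 17.3% fell. The Frizzled receptor gene Fzd2 fell (-1.30, SE 0.14, adjusted p = 2.5e-07), as did the co-receptor gene Ryk (-0.58, SE 0.09, adjusted p = 4.8e-05). Lgr6, weakly measured and named after its value was seen, rose (1.31, SE 0.41). Its wild-type mean was 0.883 CPM, from 13 counts over the 3 libraries. The co-receptor gene Lrp6 rose in the DHX36 knockout (0.56, SE 0.12, adjusted p = 0.0019) and did not pass in the double knockout (0.13). In the FANCJ knockout 0 of the 17 passed by edgeR or DESeq2, and 5 had an unadjusted p under 0.05. By edgeR 1.45% of all tested genes rose and 0.619% fell there.

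Inhibitors, transducers and nuclear factors were called in both directions in the double knockout, where 16.6% of all tested genes rose and 17.3% fell. Of 7 tested secreted inhibitor genes, 2 rose and 2 fell in the double knockout, among them Sfrp1, which binds Wnts outside the cell (29.6 CPM in wild type, 59.3 CPM in the double knockout, log2 change 1.00, SE 0.12, adjusted p = 1.1e-06). Dkk1, an antagonist of LRP receptors, was at 10.2 CPM in wild type, 14.5 and 15.4 CPM in the DHX36 and FANCJ knockouts and 7.11 CPM in the double knockout. Its rise without DHX36 (0.51, SE 0.17) was lost without wild-type library 2 or 3 or DHX36 knockout library 2 or 3 (adjusted p from 0.0779 to 0.181), and its fall in the double knockout (-0.51, SE 0.18) without wild-type library 1 or double knockout library 1 or 3 (adjusted p from 0.0658 to 0.194). The rise was also lost with DESeq2 (adjusted p = 0.0639) and at equal depth (0.0727). The fall was also lost without the filter on low counts (adjusted p = 0.0525), with DESeq2 (0.0501) and at equal depth (0.103). The interaction of -1.64 (SE 0.23, adjusted p = 8.4e-05) passed. Of 18 destruction complex and transducer genes, 4 rose and 3 fell, and Ctnnb1, the gene of beta-catenin, was at 507 CPM (SD 27.3) in wild type and 608 CPM (SD 23.9) in the double knockout (0.26, SE 0.07, adjusted p = 0.0082).

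Of 15 tested nuclear effectors beside Tcf7, 5 rose and 4 fell in the double knockout, where 16.6% of all tested genes rose and 17.3% fell. Tcf7l1, the repressor that restrains pluripotency genes, rose from 577 to 856 CPM (0.57, SE 0.10, adjusted p = 0.00011), and Tle3, a corepressor, rose too (0.92, SE 0.12). Tcf7l2 fell without DHX36 (-0.83, SE 0.12) and without both (-0.98, SE 0.11). Lef1 was at 24.9 CPM in wild type, 59.6 CPM in the DHX36 knockout (1.28, SE 0.13, adjusted p = 3.5e-07), 19.8 CPM in the FANCJ knockout and 29.8 CPM in the double knockout. Its changes in the FANCJ knockout (-0.32) and the double knockout (0.27) did not pass.

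Other known Wnt targets, among them Lef1, Dkk1 and Notum from the lists above, were called about as often in each direction: of 17 tested, 4 rose and 4 fell in the double knockout, beside 16.6% and 17.3% of all tested genes, with a median of 0.01. Tbx3, a pluripotency factor as well as a Wnt target, rose from 49.8 to 123 CPM (1.31, SE 0.09, adjusted p = 3.2e-10), and Bmp4, a signal of early mesoderm, rose from 70.9 to 129 CPM (0.86, SE 0.10, adjusted p = 4.2e-07). Id2, an inhibitor of helix-loop-helix factors, fell from 54.6 to 25.8 CPM (-1.08, SE 0.12, adjusted p = 5.7e-07). Cdx2, a homeobox gene related to Cdx1 and named after its value was seen, was at 4.39 CPM in wild type and 0.937 CPM in the double knockout (-2.24, SE 0.34, adjusted p = 2.2e-05). In the DHX36 knockout 5 of the 17 rose and 1 fell, where 12.8% of all tested genes rose and 11.6% fell. In the FANCJ knockout 1 rose, where 1.45% of all tested genes rose.

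**Figure D4:**
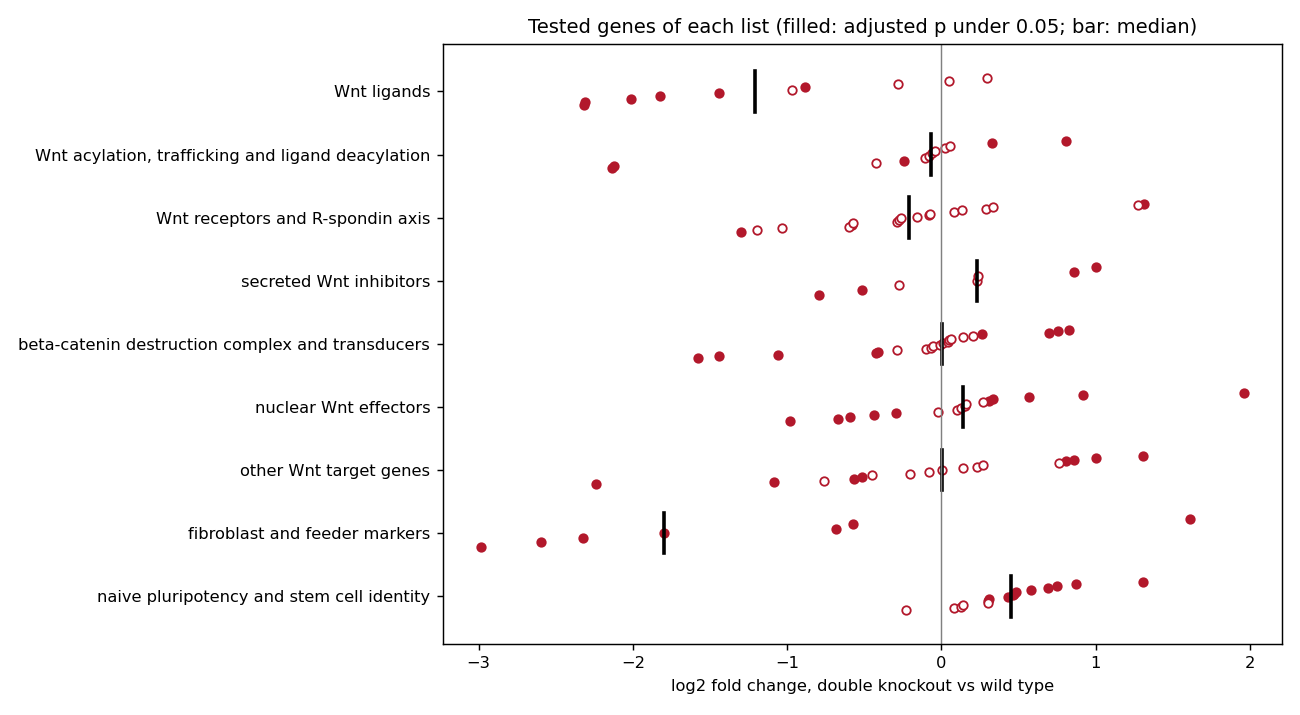
Log2 fold change of the double knockout against wild type (horizontal axis) for every tested gene of 9 lists, the 10 genes above included where a list holds them, with filled points where the adjusted p is under 0.05 and a bar at each list's median. The bar of the Wnt ligands and that of the fibroblast and feeder markers lie below -1, that of the naive pluripotency genes lies above 0, and those of the other lists lie closer to 0.

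Naive pluripotency genes moved the other way to the 10 genes in the double knockout. Of 16 tested, 11 rose and 0 fell by edgeR (0 fell at an unadjusted p under 0.05 and 0 by DESeq2), with a median of 0.45. Over all tested genes 16.6% rose and 17.3% fell. The summed level of the 16 was 7034 to 7174 CPM against 5233 to 5361 CPM in wild type. No gene of that list was at 0 in all libraries of a genotype. The part of this difference in the fall of the 10 genes was not tested.

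Likeness of course over the 12 libraries was measured as the root mean square distance between centred log2 CPM values, among the 9437 tested genes whose mean was 5 CPM or more. The nearest to Wls was Wnt4 (distance 0.216, against a median of 0.972 over the candidates), followed by Thbs1 (0.229) and Acta1 (0.233), the genes of thrombospondin 1 and skeletal muscle actin. Nearest to Wnt3 were Nog (0.222, median 0.919), which encodes the BMP antagonist noggin, Itpkb (0.307) and Col1a1 (0.313), and Wls itself was at 0.321 from Wnt3. Nearest to T were the MHC class I gene H2-Q7 (0.563, median 1.24), Epha1 (0.715) and Fgd5 (0.719), while Wnt3 (1.38) and Wls (1.63) lay farther from T than the median candidate. H2-Q7 has near-identical neighbours among which counts may be split, so its level of 20.6 CPM in the DHX36 knockout and 3.17 CPM in the FANCJ knockout is uncertain.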

How the data were processed

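Libraries were made from total RNA by a protocol like CEL-Seq2, per the labels' protocols. The authors deposited counts, whole numbers per gene and library without normalisation. BWA and the builds GRCm38 and hg38 are named in the submitters' processing notes. Counting of reads or molecules and the handling of strand were not given in the sources used here. Totals per library were 4284785 to 14721931, so 3 counts stand for 0.203 to 0.703 CPM, and 92 spike-in rows were left out.

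Tests used edgeR 4.0.16 under R 4.3.3 (quasi-likelihood F test, two-sided, TMM normalisation, default filter by genotype, 12765 genes, all 12 libraries in 1 model with genotype as its term), with Benjamini-Hochberg adjustment over all tested genes and a threshold of 0.05. SE values follow from the log2 change and the F statistic, and 95% intervals from the SE with 8 residual degrees of freedom. The test itself also pools the spread over genes, so SE values and intervals are approximate and need not match its p-values. CPM used TMM-scaled totals, and log2 CPM a prior count of 2. Within a genotype, pairs of libraries gave a chi-square over its degrees of freedom of 4.11 to 12.5, above counting noise, and each library counted as 1 replicate. Alternatives were other scaling, no filter, DESeq2 1.42.0, a replicate block, thinning to equal depth (4284785 counts), fitting the compared genotypes alone, and leaving out each library. Scripts were tested on simulated data.

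The 10 genes and the lists were chosen with earlier results of these data known. Beyond the 10, up to 4 genes per list were named by largest change past the threshold in any comparison with wild type at a mean of at least 5 CPM, plus a few pathway genes named always and those marked in the text.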

Additional observations from a re-analysis of the deposited data

Results flagged for a closer look

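For 5 of the 10 genes the effect of FANCJ loss differed between cells without and cells with DHX36, by the interaction term of edgeR's quasi-likelihood model. Over all tested genes 6.06% had a called negative difference and 2.73% a positive one. The difference on the log2 scale was -1.99 for Wnt3, -1.72 for Wls, -1.34 for Sp5, -1.22 for Nkd1 and -1.03 for Ccnd1. For Wnt3 it was measured from 12 to 16 counts per double knockout library, and for Ccnd1 by 1683 to 2176. Of the 5, the Nkd1 call alone was lost under any alternative run, those named with it above. Groups of 3 libraries were not searched for single libraries that stand apart.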

How the results depend on the processing

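In the double knockout against wild type 9 of the 10 genes were lower and 0 higher under every alternative run. In the DHX36 knockout the number of higher genes was 1 to 2 when 1 library was left out, and the number of lower genes was 1 to 2, and 2 at equal depth. In the FANCJ knockout 1 gene (Wls) was higher without the filter on low counts. Against the FANCJ knockout, the double knockout had 1 gene higher in place of 2 without the filter, with DESeq2 and with the replicate block, 0 at equal depth, and 1 to 2 when 1 library was left out. The causes were not tested. No value that changed sign passed the test, in the main fit or in the refit. Wnt3 in the FANCJ knockout was -0.00173 with plain library totals, -0.0244 at equal depth and -0.15 to 0.19 with 1 library left out. Cdx1 between the single knockouts was -0.0291 with plain library totals and -0.0757 to 0.0859 with 1 library left out. With 1 library left out, Nkd1 in the DHX36 knockout ran from -0.12 to 0.30, Ccnd1 from -0.15 to 0.11 in the DHX36 knockout, from -0.13 to 0.0301 in the FANCJ knockout and from -0.19 to 0.0727 between them, and the T interaction from -0.20 to 0.16.

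The replicate numbers did not pair the libraries: over 18 pairs of same-numbered libraries the correlation of deviations was -0.06 to 0.05. With the number as a block, the 10 genes gave 9 lower in the double knockout as before, the Lgr4 difference between double and FANCJ knockout was lost (0.25, adjusted p = 0.0559), and no other call on the 10 genes changed. Over all genes the counts in the FANCJ knockout depended most on the setting: 185 higher and 79 lower became 292 and 126 without the filter, 110 and 49 with only the compared genotypes fitted, and as few as 83 and 27 with 1 library left out. Depth limits the values with the fewest counts: Wnt3, Sp5 and Nkd1 with 12 to 43 counts per double knockout library, and T with 13 to 15 per FANCJ knockout library. Other scalings moved the median of all genes by less than 0.1. Calls on the named genes of the other lists kept their side of the threshold in 1045 refits and lost it in 99, with no change of direction, and the counts of those lists moved by more than 1.5 times in 103 refits and less in 911.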

Other observations

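Markers of other lineages are given as values, since the 10 genes are known from early lineage decisions. Of 5 tested neuroectoderm markers, 4 fell in the DHX36 knockout (Pax6, -0.99, SE 0.24) and Tubb3, the one with the most counts, rose (0.36, SE 0.08), where 11.6% of all tested genes fell and 12.8% rose. In the double knockout 4 fell (Nes, which encodes nestin, -1.02, SE 0.15), where 17.3% of all tested genes fell. Of 9 tested trophoblast markers, 4 rose and 4 fell in the double knockout, where 16.6% of all tested genes rose and 17.3% fell. Among the rises were Hand1 (36.8 CPM in wild type, 53.5 CPM in the double knockout) and Eomes (19.9 and 29.4 CPM). The simple epithelial keratin genes Krt8 (-1.90, SE 0.10) and Krt18 (-1.77, SE 0.11) were among the falls. Of 11 tested primitive endoderm markers, 7 rose in the FANCJ knockout, where 1.45% of all tested genes rose. Among the 7 were Sox17 (2.42, SE 0.35), Col4a1 (0.89, SE 0.11) and Col4a2 (0.84, SE 0.11). In the double knockout 3 of the 11 rose, Sox17 among them (1.96, SE 0.35), and 3 fell, including Col4a1 (-0.85, SE 0.12) and Col4a2 (-1.12, SE 0.11). These counts stand beside 16.6% and 17.3% of all tested genes. Sox17 is also counted among the nuclear Wnt effectors.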
